A study of Chlamydomonas reinhardtii with 6 samples.

Results

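Chlorophyll and tetrapyrrole synthesis in the unicellular green alga Chlamydomonas reinhardtii is represented here by 10 genes, chosen by identifier from a list that pairs each one with its name (HEMA1, GSA1, ALAD1, CPX1, CHLD, CHLH1, CHLI1, CRD1, POR1 and GUN4). The deposited table covered 17736 gene models, and all 10 genes were among the 10878 that had a mean of at least 1 FPKM (fragments per kilobase of transcript, scaled to the counted reads of the library) and were tested. RNA sequencing was done on 3 biological replicates of a knockout of CMD1 (cmd1 KO) and 3 of wild type (WT), both in strain CC125. CMD1 is a relative of the TET dioxygenases, which oxidise methylated cytosine in animal DNA, and the study asked how its loss altered gene expression. Cultures of both genotypes were kept at 25 °C with acetate in dim light (20 µmol photons per m2 and second) and then put into a high salt medium under a light of 300 µE. No library came from cells left in dim light. The labels call the mutant cmd1 KO and give no clone or allele, and the level of CMD1 itself was not analysed here.

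Chlorophyll and heme are built by one pathway in the chloroplast. It starts from glutamate bound to its transfer RNA, passes through aminolevulinate and a series of porphyrin rings, and forks at protoporphyrin, where iron gives heme and magnesium commits the ring to chlorophyll. Free porphyrin intermediates react with light to form singlet oxygen, so the pathway is known to be controlled at its first step and at the magnesium step.

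Replicate 3 stood apart from replicates 1 and 2 in both genotypes, and the 10 genes showed this plainly. Their summed level was 307, 270.3 and 988 CPM (counts scaled to a common library size) in cmd1 KO replicates 1, 2 and 3, against 1766, 1569 and 869.8 CPM in WT replicates 1, 2 and 3. On this scale the cmd1 KO sum was below that of WT in pairs 1 and 2 and slightly above it in pair 3. The typical gene moved too, since 89.1%, 86.4% and 75.9% of all tested genes were lower in cmd1 KO in pairs 1, 2 and 3 when only library sizes were used, with median log2 ratios of -1.40, -1.48 and -0.32. The median FPKM over all gene models was 0.525, 0.491 and 1.76 in cmd1 KO replicates 1, 2 and 3. In WT replicates 1, 2 and 3 it was 1.86, 1.95 and 2.53. By this value cmd1 KO replicates 1 and 2 were the libraries apart, and cmd1 KO replicate 3 was close to WT. Total counts ran from 38875025 to 47869886 per library, and the lowest count of any member in any library was 162, so counting error was small beside the difference between replicates. The biological coefficient of variation over all tested genes was 0.558 with all 6 libraries and 0.130 within replicates 1 and 2. In bulk libraries fewer cells with a transcript and less of it per cell cannot be told apart.

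**Figure D1:**
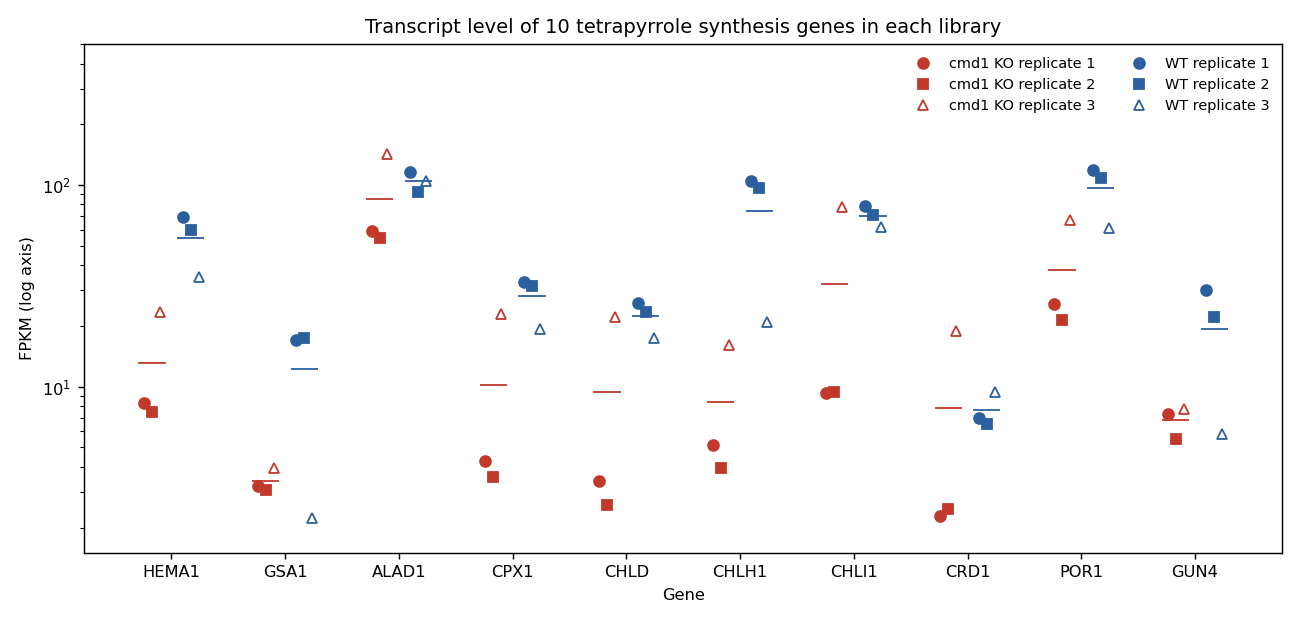
FPKM of each of the 10 genes in each library, on a log axis, with cmd1 KO in red left of WT in blue. Circles and squares are replicates 1 and 2, open triangles are replicate 3, and short lines are the means of 3 libraries. On this scale the triangles of cmd1 KO lie above the filled symbols for all 10 genes (after TMM scaling replicate 3 is instead below the mean of replicates 1 and 2 for GSA1, ALAD1 and GUN4), while in WT they lie below them for 8 of the 10.

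Per transcript length, the genes spanned more than an order of magnitude. In cmd1 KO the order by mean FPKM was ALAD1, POR1, CHLI1, HEMA1, CPX1, CHLD, CHLH1, CRD1, GUN4 and GSA1, with ALAD1 at 85.3 ± 49.6 FPKM and GSA1 at 3.41 ± 0.460 FPKM (SD, n = 3). In WT it was ALAD1, POR1, CHLH1, CHLI1, HEMA1, CPX1, CHLD, GUN4, GSA1 and CRD1, with ALAD1 at 104 ± 11.6 FPKM and CRD1 at 7.63 ± 1.54 FPKM (SD, n = 3). CHLH1 had rank 7 in cmd1 KO, at 8.37 ± 6.65 FPKM, and rank 3 in WT, at 73.9 ± 46.1 FPKM (SD, n = 3). Most neighbours in these orders overlapped in their ranges over libraries. The neighbours without overlap were GUN4 above GSA1 in cmd1 KO and HEMA1 above CPX1 in WT.

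Over all 6 libraries no member passed the test for a genotype difference. edgeR's quasi-likelihood test with trimmed mean of M-values (TMM) scaling gave 0 calls among the 10 at an adjusted p (Benjamini-Hochberg) of 0.05, and 0% of all tested genes were called. The fitted log2 difference was below 0 for 8 of the 10, with a median of -0.74, beside a median of -0.05 over all tested genes. At an unadjusted p under 0.05 there were 2 members, CHLH1 and HEMA1, where 17.9% of all tested genes reached it. DESeq2 called 1 member, CHLH1, as lower (log2 difference -2.42, SE 0.70, adjusted p = 0.0215), where it called 2.54% of tested genes lower. Without cmd1 KO replicate 3, edgeR called 3 members lower, CPX1, CHLD and CHLI1, where 20.7% of tested genes were called lower.

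Within replicates 1 and 2, 8 of the 10 genes fell and ALAD1 rose in cmd1 KO, while CRD1 did not pass. In this fit of 2 libraries against 2, 37.9% of all tested genes were called lower and 34.4% higher (edgeR, adjusted p of 0.05). The members' median log2 difference was -1.35, beside -0.08 over all tested genes. Scaling on library sizes alone moved the median of all tested genes to -1.44 and that of the members to -2.72. The members lay about as far below the typical gene under either scaling. Rescaling shifts all genes of a library alike, so this gap could hardly change and is no separate check. With library sizes alone all 10 members were called lower, where 78.8% of all tested genes were. The spread in this fit is that between libraries of replicates 1 and 2, and replicate 3 shows that cultures differed by more.

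**Figure D2:**
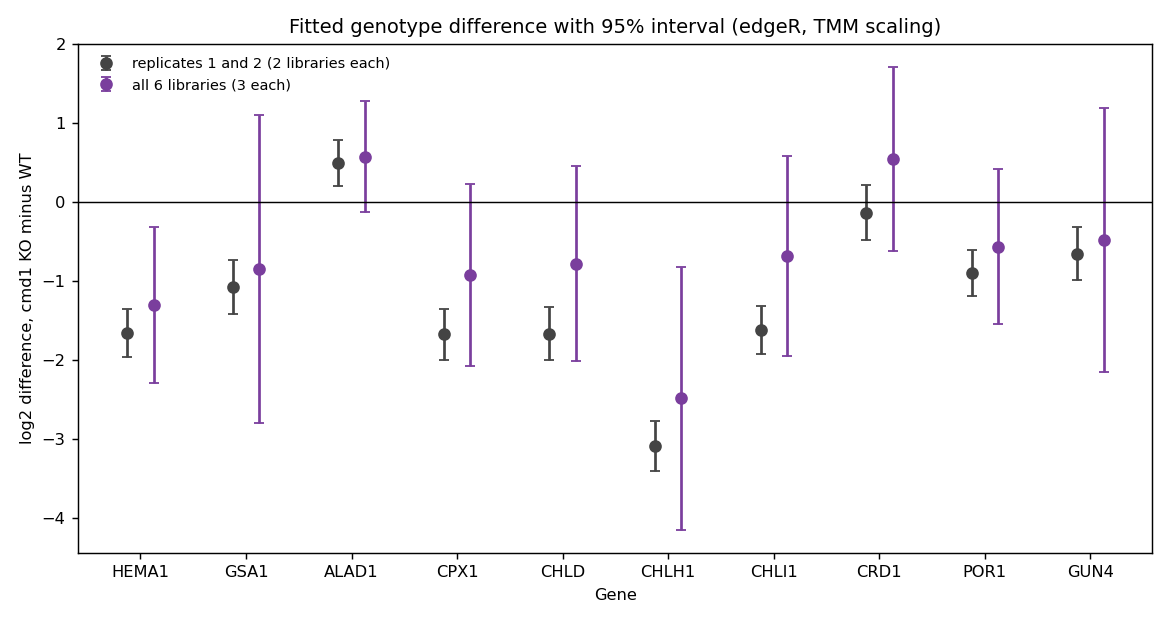
Fitted log2 difference, cmd1 KO minus WT, with its 95% interval from edgeR's quasi-likelihood fit with TMM scaling. Grey points are the fit of replicates 1 and 2 and purple points that of all 6 libraries. The intervals of all 6 libraries are wider for each gene, and of these only those of HEMA1 and CHLH1 lie wholly below 0.

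HEMA1 (Cre07.g342150.v5.5, chromosome 7 from 4202521 to 4206092 of assembly v5.5) encodes glutamyl-tRNA reductase, the first committed enzyme of the pathway and a target of feedback by heme. It stood at 8.32, 7.48 and 23.4 FPKM in cmd1 KO replicates 1, 2 and 3, against 69.1, 59.9 and 34.8 FPKM in WT replicates 1, 2 and 3. The highest cmd1 KO library was below the lowest WT library. Over replicates 1 and 2 it fell 3.16-fold in cmd1 KO (log2 difference -1.66, SE 0.15, adjusted p = 8e-12 in edgeR), and over all 6 libraries its log2 difference was -1.31 (SE 0.42, adjusted p = 0.263).

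GSA1 (Cre03.g210513.v5.5, chromosome 3 from 9042344 to 9046301) encodes glutamate-1-semialdehyde aminotransferase, which makes aminolevulinate from the product of HEMA1. It stood at 3.21, 3.08 and 3.93 FPKM in cmd1 KO, against 16.96, 17.5 and 2.22 FPKM in WT. WT replicate 3 was the lowest of all 6 libraries, 7.74-fold below the mean of WT replicates 1 and 2, so the genotypes overlapped. GSA1 fell 2.12-fold in cmd1 KO over replicates 1 and 2 (log2 difference -1.08, SE 0.17, adjusted p = 7.53e-07 in edgeR). In replicate 3 it was higher in cmd1 KO, at 285 counts against 162 in WT, a log2 ratio of 1.12 on TMM-scaled values and 0.82 where only library sizes were used.

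ALAD1 (Cre02.g091050.v5.5, chromosome 2 from 2376375 to 2380018) encodes aminolevulinate dehydratase, which joins aminolevulinate into porphobilinogen. Its FPKM was 58.9, 54.6 and 142 in cmd1 KO, against 116, 92.3 and 105 in WT. Per FPKM the cmd1 KO libraries lay on both sides of WT, but after TMM scaling all 3 lay above WT, at 227, 221 and 205 CPM in cmd1 KO and 175, 141 and 123 CPM in WT. Over replicates 1 and 2 it rose by a log2 difference of 0.50 in cmd1 KO with TMM scaling (SE 0.14, adjusted p = 0.00257 in edgeR), and with library sizes alone the sign turned, to -0.87. Its direction against WT therefore depended on the scaling. Under both scalings it lay above the median gene, a position that rescaling libraries can hardly alter.

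CPX1 (Cre02.g085450.v5.5, chromosome 2 from 1646979 to 1650920) encodes coproporphyrinogen oxidase, which acts on the ring shortly before the fork and is known in this alga to respond to copper and oxygen supply. It stood at 4.27, 3.57 and 22.8 FPKM in cmd1 KO, against 33.2, 31.7 and 19.3 FPKM in WT. Replicates 1 and 2 of cmd1 KO were far below WT, and cmd1 KO replicate 3 lay between WT replicates 2 and 3. Over replicates 1 and 2 the gene fell 3.20-fold in cmd1 KO (log2 difference -1.68, SE 0.16, adjusted p = 3.19e-11 in edgeR).

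Magnesium chelatase, which inserts magnesium into protoporphyrin, is made of the subunits D, H and I. The H subunit holds the porphyrin, and the I and D subunits form the ATP-driven ring. CHLH1 (Cre07.g325500.v5.5, chromosome 7 from 1676902 to 1683972) stood at 5.15, 3.95 and 16.02 FPKM in cmd1 KO, against 105, 96.3 and 20.8 FPKM in WT. The genotypes did not overlap, yet the libraries of replicate 3 were close to each other. In rank by FPKM among the 17736 gene models, which no library scaling can alter, CHLH1 was at 2912, 3354 and 2417 in cmd1 KO and at 463, 444 and 2143 in WT. Over replicates 1 and 2 it fell 8.55-fold in cmd1 KO (log2 difference -3.10, 95% interval -3.41 to -2.78, adjusted p = 6.84e-18 in edgeR), and 1.97% and 2.74% of tested genes had a lower ratio in pairs 1 and 2. Its difference over all 6 libraries was -2.49 (SE 0.70, adjusted p = 0.263).

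Transcripts of the other chelatase subunits fell by similar folds, smaller than that of CHLH1, in replicates 1 and 2. They are also shorter, at 2157 bases for CHLI1 and 3210 for CHLD, against 5261 for CHLH1. Over all tested genes the longer ones tended to have lower ratios in pairs 1 and 2. The part of length in this contrast was not tested. CHLI1 (Cre06.g306300.v5.5, chromosome 6 from 8333800 to 8337913) stood at 9.31, 9.39 and 77.8 FPKM in cmd1 KO, against 78.5, 70.6 and 62.0 FPKM in WT. CHLD (Cre05.g242000.v5.5, chromosome 5 from 1830301 to 1836438) stood at 3.42, 2.58 and 22.2 FPKM in cmd1 KO, against 25.9, 23.5 and 17.5 FPKM in WT. For both, cmd1 KO replicates 1 and 2 were far below all WT libraries, and cmd1 KO replicate 3 was within the WT range. Over replicates 1 and 2 the fall was 3.09-fold for CHLI1 (log2 difference -1.63, 95% interval -1.93 to -1.32, adjusted p = 1.71e-11 in edgeR) and 3.19-fold for CHLD (-1.67, 95% interval -2.01 to -1.34, adjusted p = 6.72e-11), and neither interval reached that of CHLH1.

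GUN4 (Cre05.g246800.v5.5, chromosome 5 from 971441 to 974184) binds porphyrins and stimulates magnesium chelatase. It stood at 7.29, 5.52 and 7.76 FPKM in cmd1 KO, against 30.1, 22.0 and 5.80 FPKM in WT. Per FPKM the cmd1 KO libraries differed little, as for GSA1, and WT replicate 3 was 4.49-fold below the mean of WT replicates 1 and 2. After TMM scaling replicate 3 was the lowest library of both genotypes for GUN4, at 36.5, 29.0 and 14.5 CPM in cmd1 KO and 59.3, 43.8 and 8.78 CPM in WT. GUN4 fell 1.57-fold in cmd1 KO over replicates 1 and 2 (log2 difference -0.66, SE 0.17, adjusted p = 0.000773 in edgeR).

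CRD1 (Cre07.g346050.v5.5, chromosome 7 from 4866866 to 4871395) encodes a subunit of the cyclase that closes the isocyclic ring of chlorophyll, and like CPX1 it is known to respond to copper and oxygen supply. Its FPKM was 2.29, 2.48 and 18.8 in cmd1 KO, against 7.02, 6.50 and 9.39 in WT, so cmd1 KO replicates 1 and 2 were the lowest libraries and cmd1 KO replicate 3 the highest. After TMM scaling CRD1 did not pass within replicates 1 and 2 (log2 difference -0.13, 95% interval -0.48 to 0.21, adjusted p = 0.484 in edgeR), and with library sizes alone it was called lower, at -1.50, close to the -1.44 of the median gene. Within replicates 1 and 2 the position of CRD1 relative to WT therefore depended on the scaling.

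POR1 (Cre01.g015350.v5.5, chromosome 1 from 2635337 to 2638506) encodes the light-dependent protochlorophyllide oxidoreductase, which gives chlorophyllide. It stood at 25.8, 21.4 and 67.0 FPKM in cmd1 KO, against 119, 108 and 61.5 FPKM in WT. The genotypes were well apart in replicates 1 and 2 and close in replicate 3. POR1 fell 1.87-fold in cmd1 KO over replicates 1 and 2 (log2 difference -0.90, SE 0.14, adjusted p = 1.29e-06 in edgeR).

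In replicate 3 alone, with 1 library per genotype and no replicate check, the genes were mostly somewhat higher in cmd1 KO. With TMM scaling 8 of the 10 lay above WT and HEMA1 and CHLH1 below it, with a median log2 ratio of 0.64 beside -0.01 over all tested genes. CRD1, at a log2 ratio of 1.31, and GSA1, at 1.12, were at least 2-fold higher in cmd1 KO, as were 3.08% of all tested genes, and 0 members were 2-fold lower, where 5.13% of tested genes were. With library sizes alone the median of the members was 0.34, beside -0.32 over all tested genes, and the same 8 genes lay above WT.

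**Figure D3:**
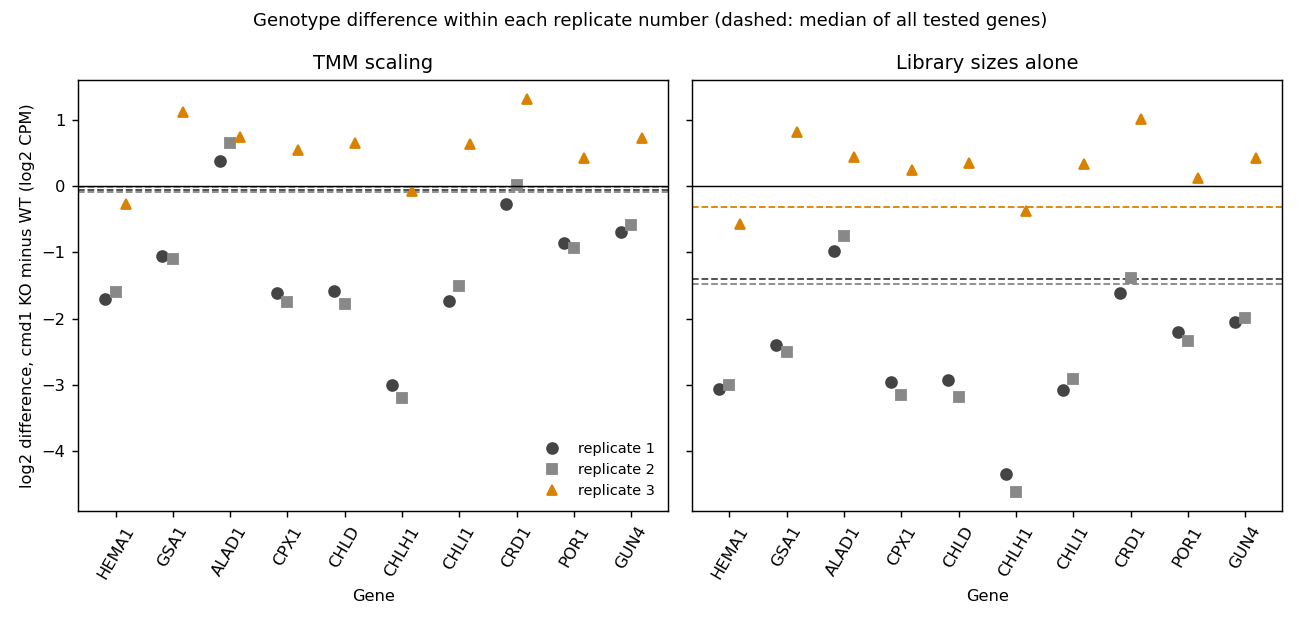
Log2 ratio of cmd1 KO over WT for each gene in each same-numbered pair, with TMM scaling at the left and library sizes alone at the right. Circles, squares and triangles are replicates 1, 2 and 3, and dashed lines are the medians of all tested genes. The triangles lie above the circles and squares for all 10 genes in both panels.

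The genotype effect in replicate 3 differed from that in replicates 1 and 2 for 9 of the 10 genes, all of them more positive in replicate 3. Among all tested genes 27.3% were called more positive and 23.4% more negative at an adjusted p of 0.05 in edgeR. This interaction test takes its spread from replicates 1 and 2. The difference was largest for CHLH1, at 3.02 on the log2 scale (SE 0.26, adjusted p = 1.5e-09), and CPX1, CHLD, CHLI1 and GSA1 followed at 2.22, 2.32, 2.25 and 2.20. ALAD1 did not pass, at 0.24 (95% interval -0.28 to 0.76, adjusted p = 0.442 in edgeR), and with library sizes alone it did, at 1.31. With library sizes alone 58.7% of all tested genes were called more positive, and the median gene was at 1.11, close to ALAD1.

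The change between replicates 1 and 2 and replicate 3 had a different size in each genotype, and it depended on the scaling. Within cmd1 KO, FPKM in replicate 3 was 8.33-fold higher than the mean of replicates 1 and 2 for CHLI1, 7.90-fold for CRD1, 7.41-fold for CHLD and 5.83-fold for CPX1, and after TMM scaling these folds were 3.03, 2.87, 2.71 and 2.12. For GSA1 and GUN4 cmd1 KO replicate 3 was 1.25-fold and 1.21-fold higher per FPKM, but 2.20-fold and 2.26-fold lower after TMM scaling. Within WT, replicate 3 was lower than the mean of replicates 1 and 2 by 7.74-fold per FPKM and 10.1-fold after TMM scaling for GSA1, by 4.82-fold and 6.31-fold for CHLH1, and by 4.49-fold and 5.87-fold for GUN4. For CHLI1 and CHLD the fall within WT was 1.20-fold and 1.41-fold per FPKM, and 1.57-fold and 1.84-fold after TMM scaling. Under both scalings the fold between replicate 3 and the others was larger within WT for GSA1, GUN4 and CHLH1, and larger within cmd1 KO for CHLI1, CHLD and CRD1.

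Transcript length moved with the genotype difference across all genes in pairs 1 and 2, and its part in the members' values was not tested. From the shortest to the longest of 5 length classes of tested genes, the median log2 ratio after TMM scaling went down from 0.87 to -1.15 in pair 1 and from 1.09 to -1.36 in pair 2, but only from 0.18 to -0.10 in pair 3, where 8 of the 10 members lay above WT. The length that the FPKM values imply was 5261 bases for CHLH1, in the longest class (3740 to 33247 bases). CHLH1 itself was at log2 ratios of -3.00 and -3.20 in pairs 1 and 2. GSA1 and ALAD1, of 1864 and 1984 bases, belong to a class of 1536 to 2043 bases with medians of 0.39 and 0.49 in pairs 1 and 2, and GSA1 lay at -1.06 and -1.10 and ALAD1 at 0.37 and 0.65. CPX1, CHLI1, POR1 and GUN4 belong to a class with medians of -0.04 and -0.07, and all 4 were below those in both pairs. HEMA1, CHLD and CRD1 belong to a class with medians of -0.48 and -0.61, which HEMA1 and CHLD lay below and CRD1 above.

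Ratios between members within a library do not depend on how libraries are scaled. They can still carry the trend with transcript length, as between CHLH1 and CHLI1 (5261 and 2157 bases), and its part was not tested. Of the 45 pairs of members, 14 had FPKM ratios that did not overlap between the genotypes, or 31.1%, where 21.9% of all pairs of tested genes listed above 0 in every library did. In replicates 1 and 2 only, 38 of the 45 did not overlap, where 85.4% of all pairs did not. The 45 pairs share their genes and libraries, so they are not separate observations. The pairs given next were chosen after their values were seen and carry no test.

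HEMA1 over POR1, the first enzyme over the light-driven one, was 0.322, 0.350 and 0.349 in cmd1 KO, against 0.580, 0.552 and 0.566 in WT. Replicate 3 was here in its own genotype's narrow range. CHLI1 over CRD1 was 4.07, 3.79 and 4.13 in cmd1 KO, against 11.2, 10.9 and 6.60 in WT. CHLH1 over GUN4 was 0.707, 0.716 and 2.06 in cmd1 KO, against 3.47, 4.37 and 3.59 in WT. All 3 of these ratios were lower in every cmd1 KO library than in any WT library.

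Within the chelatase, CHLD over CHLI1 was 0.367, 0.275 and 0.285 in cmd1 KO and 0.330, 0.332 and 0.282 in WT. The genotypes overlapped, and both transcripts kept a similar proportion in all 6 libraries. CHLH1 over CHLI1 was 0.554, 0.421 and 0.206 in cmd1 KO and 1.33, 1.36 and 0.336 in WT. The CHLH1 transcript was therefore low relative to that of CHLI1 in cmd1 KO replicates 1 and 2 and in both libraries of replicate 3. WT replicate 3 was below cmd1 KO replicates 1 and 2. Subunit proteins were not measured.

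**Figure D4:**
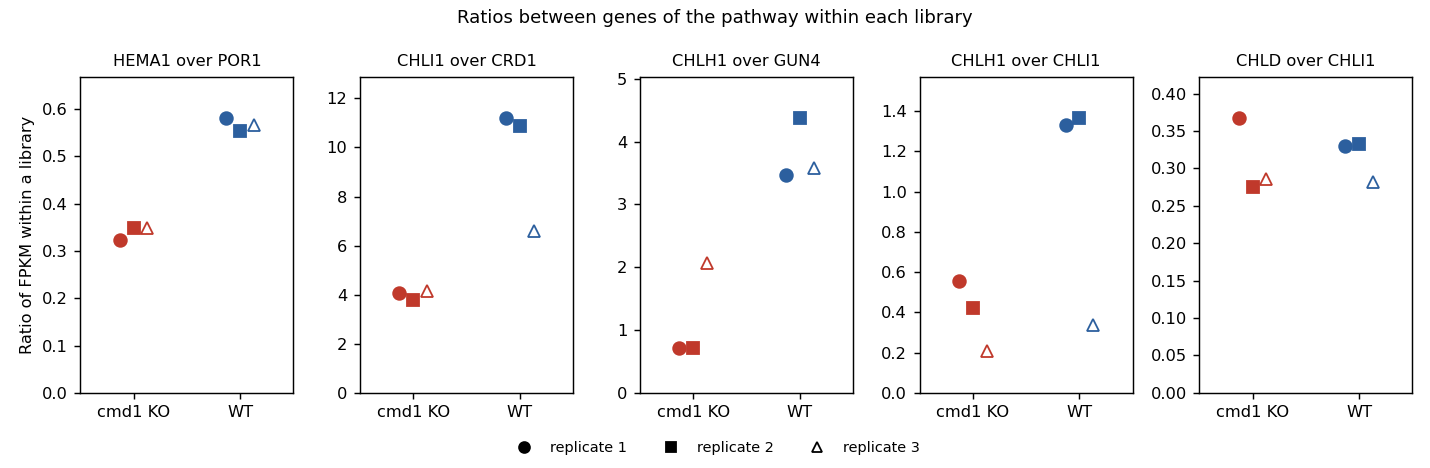
Ratio of the FPKM of one gene to that of another within each library, on linear axes that start at 0, with cmd1 KO left of WT. Circles and squares are replicates 1 and 2 and open triangles replicate 3. HEMA1 over POR1, CHLI1 over CRD1 and CHLH1 over GUN4 do not overlap between genotypes, while CHLH1 over CHLI1 and CHLD over CHLI1 do.

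After TMM scaling the genotypes were without overlap over all 6 libraries for HEMA1 and CHLH1, lower in cmd1 KO, and for ALAD1, higher in cmd1 KO. Among all tested genes 13.6% were lower and 9.43% higher without overlap, so the members' counts of 2 and 1 were close to the background. With library sizes alone HEMA1 and CHLH1 were again below WT without overlap, where 29.7% of tested genes were, and ALAD1 was not above it.

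A list of 13 further identifiers, all of them tested, was assigned to heme and chlorophyll synthesis from general knowledge. Neither the deposited table nor the gene reference annotates them, so the assignment could not be checked and they are described by counts. Within replicates 1 and 2, 9 fell and 2 rose in cmd1 KO in edgeR, with a median log2 difference of -0.60 beside -0.08 over all tested genes. The background was 37.9% lower and 34.4% higher. Of those called, the largest falls were in Cre01.g050950 and Cre11.g467700, which fell 4.97-fold (adjusted p = 2.21e-15) and 2.88-fold (adjusted p = 5.25e-11), and Cre10.g423500 and Cre12.g498550 rose 2.39-fold (adjusted p = 1.88e-09) and 1.31-fold (adjusted p = 0.0355). With library sizes alone 12 fell and 0 rose, where 78.8% of all tested genes were called lower and 6.36% higher. Over all 6 libraries edgeR called 0 of the 13. DESeq2 called 1, Cre01.g050950, as lower, where it called 2.54% of all tested genes lower.

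The mean profile of the 10 genes, on the log2 scale of TMM-scaled CPM with each gene set to unit variance, was highest in WT replicates 1 and 2 and lowest in WT replicate 3. Among the members POR1 followed it most closely (Pearson r = 0.954 over 6 libraries), and ALAD1 and CRD1 hardly did (-0.106 and 0.118). Each member is itself part of the mean profile, so these r values are not comparable with those of other genes. The other tested genes most like it were Cre15.g641400 (r = 0.995) and Cre02.g111108 (r = 0.994). Over so few libraries, 46 tested genes outside the list, these included, had an r over 0.95.

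In the authors' deposited table all 10 genes had a negative log2 fold change, with a median of -1.75 beside -1.22 over all 17736 gene models, of which 84.9% had a negative one in the authors' deposited table. An edgeR fit with a term for replicate 3 and library sizes alone gave nearly the same values for the members. Its median was -1.75, with HEMA1 at -2.25 and CHLH1 at -3.30. Library sizes alone without that term gave a median of -1.40, and the term with TMM scaling gave -0.68. The authors' values are thus close to the fit with both library size scaling and a replicate 3 term. They are not close to the TMM results above. An unadjusted p under 0.05 was reached by 6 of the 10 in the authors' deposited table, where 52.9% of all gene models reached it. Once the p-values of the authors' deposited table were adjusted over all gene models, HEMA1 had 0.0541 and CHLH1 had 0.0542. That of HEMA1 was the smallest adjusted value in the table. All gene models with a lower unadjusted p than HEMA1 shared it, so it does not single HEMA1 out.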

How the data were processed

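The labels' protocols name Trizol extraction and a stranded total RNA library kit for the 6 cultures. FastQC 0.11.5, TopHat2 and Cufflinks 2.0.0 are listed in the submitters' processing notes, without roles. Which program counted reads, with which strand setting and on which build, was not given in the sources used here. As deposited, the table of the whole series holds raw read counts and FPKM per gene, per the file headers. It also holds the authors' log2 fold change and log2 CPM, an F score and an unadjusted p-value from their own comparison. The deposited FPKM equal the count over a fixed gene length and the column total, with implied lengths whole within 0.01 base for 100% of genes, so they carry library size scaling only. Depth was 38875025 to 47869886 counts per library, and p-values measure the spread between cultures that the labels call biological replicates.

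The members and lists were chosen with earlier results of these data known. Member names come from the list that defined them. By locus tag, 17733 of the 17736 identifiers were found in RefSeq's table for assembly v5.5, which gave coordinates and no names, with 0 models overlapping a member. Sequences were not used here.

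Counts were scaled by TMM and tested two-sided with the quasi-likelihood functions glmQLFit and glmQLFTest of edgeR 4.0.16. The test was run for genotype over all 6 libraries, for genotype within replicates 1 and 2, and for the interaction of genotype with replicate 3. Genes entered at a mean FPKM of 1 or more, and p-values were adjusted over them by Benjamini-Hochberg. These steps were run on simulated counts drawn from edgeR's own fitted model. For all 6 libraries the planted change was larger than the fitted difference of any member. The simulation therefore does not show whether changes of the members' size would be found. Pair ratios were differences of log2 CPM (prior count 1). Alternatives were DESeq2 1.42.0, limma 3.58.1 on log2(FPKM + 1) and log2(FPKM + 0.1), other scalings and filters, a replicate block, a replicate 3 term and leaving out libraries, in R 4.3.3. The genes named were the 10 members, the 2 genes of most similar profile and, from the list of 13, at most 2 identifiers per direction, the largest changes among those called.

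Same-numbered libraries deviated together from their group means (r = 0.530, 0.427 and 0.547 for numbers 1, 2 and 3). The titles give both genotypes the same replicate numbers, and these were taken as pairs. Among other pairings, cmd1 KO replicate 1 correlated with WT replicate 2 at 0.479 and cmd1 KO replicate 2 with WT replicate 1 at 0.491. The correlations therefore cannot tell pairs 1 and 2 from the crossed pairing, and those pairs rest on the numbers alone.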

Additional observations from a re-analysis of the deposited data

Results flagged for a closer look

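By edgeR's interaction test, replicate 3 had another genotype effect than replicates 1 and 2 in 9 of the 10 genes, at log2 differences of 1.38 for HEMA1, 2.20 for GSA1, 2.22 for CPX1, 2.32 for CHLD, 3.02 for CHLH1, 2.25 for CHLI1, 1.44 for CRD1, 1.33 for POR1 and 1.38 for GUN4 (replicate 3 minus replicates 1 and 2). Among all tested genes 27.3% were called more positive and 23.4% more negative in replicate 3. The sets are numbered replicates of one design. With 1 library per genotype in replicate 3, its spread was taken from replicates 1 and 2.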

How the results depend on the processing

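Over all 6 libraries, the count of members called was 0 in edgeR and stayed 0 under the other edgeR and limma settings except without cmd1 KO replicate 3. It ranged from 0 to 3 when 1 library was left out, where up to 38.9% of all tested genes were called. It was 1 with DESeq2, which called 6.32% of all tested genes and 1 of the 13 other pathway genes. With the replicate block it was 0 over all 6 libraries and 9 within replicates 1 and 2, so pairing changed no count of members. Within replicates 1 and 2 the count ran from 7 to 10 over all settings, the 7 coming from a filter of 10 FPKM that left 8 members, and it was 9 to 9 when 1 library was left out. The interaction count ran from 8, with that filter, to 10, and the lone library of a genotype was assumed to vary like the others. Of all tested genes, 60.4% to 86.2% were called within replicates 1 and 2 over these settings. For the interaction the share of all tested genes called ran from 39.6% to 64.6% over the settings. It was 58.8% with the filter of 10 FPKM, and 64.6% with library sizes alone, the setting that gave 10 members. Without a replicate 3 library the interaction has no value.

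Of single genes, ALAD1 reversed over all 6 libraries to -0.29 with library sizes alone, -0.42 and -0.43 in limma with pseudocounts of 1 and 0.1, and -0.44 with a replicate 3 term and library sizes alone. Within replicates 1 and 2 it reversed to -0.87, -0.85 and -0.86 in the first 3 of these, and to -0.14 with the filter of 10 FPKM. CRD1 over all 6 libraries reversed to -0.49 and -0.64 in limma, -0.71 with the replicate 3 term and library sizes alone, and -0.16 without cmd1 KO replicate 3, in a range of -0.16 to 0.84 when 1 library was left out. GUN4 ranged from -0.95 to 0.019 when 1 library was left out, the positive value without WT replicate 1. The median log2 ratio in replicate 3 was 0.34 with library sizes alone, against 0.64. Of the 45 pairs of members, 38 did not overlap in replicates 1 and 2 only, a setting chosen after seeing the data. Of all pairs of tested genes 85.4% did not overlap there, so the members were close to the background. Within replicates 1 and 2 the other 9 members kept their direction in each setting run, and CRD1 was called lower with library sizes alone and in limma. The cause of these changes was not tested. ALAD1 and CRD1 moved with the scaling, and CRD1 over all 6 libraries also moved when cmd1 KO replicate 3 was left out. The lowest count, 162, left counting error below the spread between replicates.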
